A study of Solanum lycopersicum with 96 samples.

Results

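Bolstar-only segments are stretches of the tomato (Solanum lycopersicum) genome that stood in the region lists of all 3 Bolstar groups and in none of the 5 Moneyberg lists. The genome was cut at every region end of the 8 deposited lists, and segments of 500 bases or more were chosen by this listing pattern alone, so the pattern is the selection and not a finding. The rule kept 3051 of the 75269 segments of at least that length held by 1 list or more, which is 4.05% of them, and 7.87 Mb of sequence. No difference between groups was tested, because each group is represented by 1 pooled list without a replicate error.

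The lists come from whole-genome bisulfite sequencing of seed, in which unmethylated cytosines are converted and methylated ones are not. Seed of the cultivar Bolstar came from control mother plants, from plants given BABA (beta-aminobutyric acid, an inducer of plant defence) in time window 2 (TW2), and from plants given Ina in TW2. Seed of the cultivar Moneyberg came from control plants and from plants of the BABA TW2, BABA TW3 (time window 3), Ina TW2 and MeJA (methyl jasmonate) TW3 treatments. Each group held 12 libraries, 2 for each of 6 replicates, and each DNA extraction pooled 10 seeds, so all values describe bulk seed and not a cell type. The sample labels give these 96 libraries, whereas the series' design text gives 90 and does not mention Moneyberg BABA TW3, whose list is 1 of the 5 used in the rule.

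In plants, cytosines are methylated in the CG, CHG and CHH contexts, and transposon-rich heterochromatin usually carries most of this methylation. Methylation patterns can differ between cultivars because of differences in sequence and because patterns are inherited through seed. Deposited regions have names that begin with HYPO, but no methylation level is given, so a segment is described here as listed or not listed and no direction of methylation is assigned. Cultivar, seed lots and any step run separately on the groups cannot be told apart in these lists.

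Each region also carries a whole-number score, read here from its values as a number of cytosine sites counted in that list. The score was not fixed by position alone. Of 1044 segments whose region was the same interval in all 3 Bolstar lists, 956 had the same score in all 3. Sites and sites per kb below are therefore units of this score and not a count of all cytosines in the sequence. The smallest score was 78 in Bolstar control, 85 in Bolstar BABA TW2 and 71 in Bolstar Ina TW2, and 65 to 71 in the Moneyberg lists. Regions with a score below 85 thus occur in every Moneyberg list and in Bolstar control and Ina TW2, but not in Bolstar BABA TW2. Listed sequence amounted to 448 to 453 Mb in every list.

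The Bolstar-only segments made up 1.56% of the 503 Mb listed in any group and 1.87% of the 421 Mb held by all 3 Bolstar lists. Their median length was 1780 bases, with quartiles of 834 and 3570 and a maximum of 20721. Segments of 5 kb or more numbered 433 and held 39.2% of the Bolstar-only bases, and 37 of them reached 10 kb.

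The limit of 500 bases fell in the middle of a continuous distribution. Without it, 6972 segments (8.62 Mb) had the same pattern, of which 3921 were shorter and together held 757 kb. In the 100 bases of length just below the limit there were 372 segments, and in the 100 bases from the limit upward there were 299. The first 3 inside the limit, all of 500 bases, lay at 12126126 to 12126625 on chromosome 3, 12309495 to 12309994 on chromosome 4 and 35324562 to 35325061 on chromosome 5. The 3 just outside, all of 499 bases, lay at 40345974 to 40346472 on chromosome 11 and at 2496195 to 2496693 and 35833498 to 35833996 on chromosome 12.

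The segments formed the end of a series graded by the number of Moneyberg lists. Among segments of 500 bases or more held by all 3 Bolstar lists, 3051 were in no Moneyberg list, 2075 in 1, 2049 in 2, 2226 in 3, 3585 in 4 and 35973 in all 5. Counts thus rose towards both ends of this series from a low at 1 and 2 lists. The 2075 segments held by a single Moneyberg list were spread over all of them, with 336 in the control, 394 in BABA TW3, 424 in BABA TW2, 449 in Ina TW2 and 472 in MeJA TW3.

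The same held on the Bolstar side. Segments in no Moneyberg list and in 2 Bolstar lists numbered 1269, and those in a single Bolstar list 2509. Of the 1269, 327 lacked the control, 381 lacked BABA TW2 and 561 lacked Ina TW2. All 3 lists together (3051) were thus the commonest case, followed by a single list and then by 2.

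The converse set, held by all 5 Moneyberg lists and no Bolstar list, comprised 2419 segments or 3.21% of the 75269. It covered 8.66 Mb, or 2.06% of the 421 Mb held by all 5 Moneyberg lists. Its median length was 2830 bases, and 73 of its segments reached 10 kb, so the converse set had fewer and longer pieces. These sets require agreement among different numbers of lists, and their difference was not tested.

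The commonest place of a Bolstar-only segment was the margin of a larger region. In all 3 Bolstar lists, 1376 segments (45.1%, 95% Wilson interval 43.3% to 46.9%, which covers counting over segments and not plants) lay at the edge of a region, meaning that the region ended at 1 end of the segment and went on past the other. Another 686 (22.5%) lay inside a region that continued on both sides, and 122 (3.999%, 3.36% to 4.75%) were a complete region. The remaining 867 (28.4%) differed in place between the Bolstar lists. In the converse set 36.3% of segments were edges in every Moneyberg list, 14.3% were inside, 13.6% were complete regions and 35.8% were mixed. There the place had to agree in 5 lists and not 3, and the difference was not tested.

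Lengths went with place. Inside segments were short, with a median of 883 bases, and held 13.1% of the Bolstar-only bases. Edge segments had a median of 1952 bases and held 42.8%. Complete regions had a median of 7224 bases and held 11.6% of the bases. A complete region has to reach the smallest score of its list by itself, which edge and inside segments do not, so these lengths are not compared on equal terms. None of the 37 segments of 10 kb or more was inside in all 3 lists, whereas 15 were complete regions, 6 were edges and 16 were mixed.

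**Figure D1:**
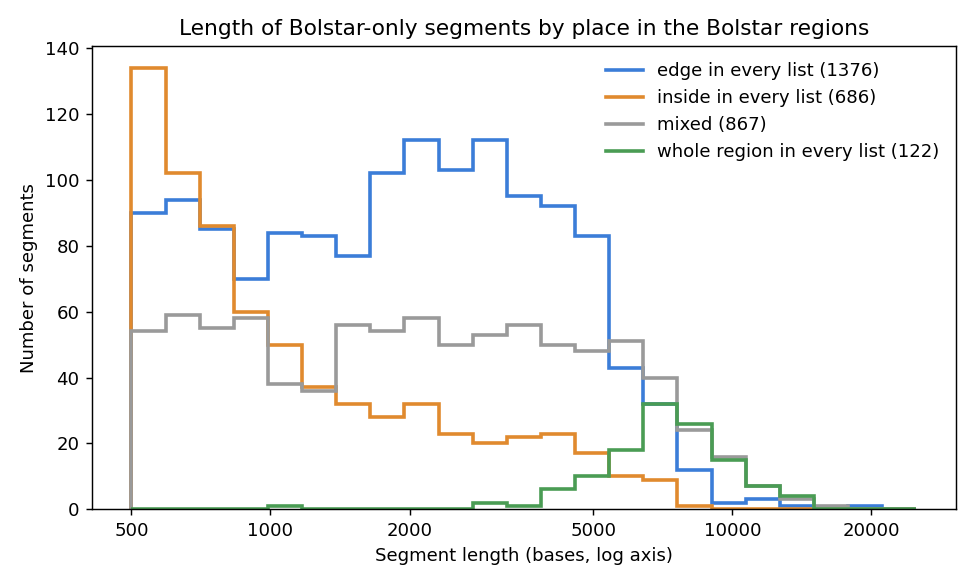
Number of Bolstar-only segments (vertical axis) by length in bases (horizontal log axis), with 1 line for each place in the Bolstar regions and the number of segments in brackets. The median length was 883 bases for inside segments, 1952 for edge segments and 7224 for the 122 complete regions.

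The 3 Bolstar lists often agreed to the base, but not always. Among segment ends where a Bolstar region stopped, all 3 stopped together at 1709 and only some of them at 925. Of the 1376 edge segments, 1367 had the region end on the same side in all 3 lists. The edge class already requires a region end at the segment in every list, so the count of 1367 is no measure of agreement. The region around a segment was the same interval in all 3 lists for 1044 segments (34.2%), and 956 of these had the same score in all 3. Bolstar BABA TW2, the list with the fewest and longest regions, held 1167 segments inside a region, against 1071 in Bolstar control and 945 in Bolstar Ina TW2. Of the mixed segments, 202 were inside a region in BABA TW2 alone, 140 in the control alone and 65 in Ina TW2 alone.

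The 6102 segment ends showed what lay beyond. At 1709 ends all 3 Bolstar regions stopped together, at 925 ends 1 or 2 of them stopped, and at 3468 ends the Bolstar regions went on and a Moneyberg region began. In 2103 of these 3468 cases all 5 Moneyberg lists began at that same base, and in 1365 cases 1 to 4 of them did.

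Seen from Moneyberg, 1617 segments (53.0%) had all 5 lists on 1 side. In 338 of these the segment was inside a region of every Bolstar list, with 1 to 4 Moneyberg lists on its other side, and 880 were edges in every Bolstar list. A further 243 segments (7.96%) had all 5 Moneyberg lists on both sides and filled a gap common to them, with a median length of 855 bases. For 922 segments (30.2%) the neighbouring stretch was held by 1 to 4 Moneyberg lists. The last 269 (8.82%) had no Moneyberg list next to them and were long, with a median of 6747 bases and 1.87 Mb in all. In each single Moneyberg list, 73.6% to 74.4% of the segments touched a region, and 132 segments were more than 5 kb from any region of any Moneyberg list.

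Regions that carried a segment were a minority of each list: 2879 of 26750 in Bolstar control (10.8%), 2865 of 24151 in BABA TW2 (11.9%) and 2903 of 30071 in Ina TW2 (9.65%). In the control these had a median length of 14.2 kb, against 11.2 kb for the other regions, and longer regions offer more bases on which a segment can fall. The segment was usually a small part, with a median of 12.5% of the region in the control. In 340 control regions it was at least 50%.

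The complete regions give the score of Bolstar-only sequence directly. Scores of the 122 ranged from 86 to 219 over the 3 lists, with a median of 100.5 in the control, and 114 regions had the same score in all 3 lists. In the Bolstar BABA TW2 list such a region has a score of at least 85 by that list's minimum, above the Moneyberg minima of 65 to 71. The nearest region of any Moneyberg list was at a median distance of 6503 bases, and for 66 regions it was more than 5 kb away. In the control they held a median of 13.8 sites per kb (quartiles 11.9 and 16.6), and the 13988 other control regions with scores in the same range held 15.3 (12.9 and 19.7).

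For edge and gap segments a score could be estimated by subtraction. Where a Bolstar region equalled a Moneyberg region plus the segment, the difference of their scores is taken as the segment's score. The estimate assumes that both lists score the shared bases alike, which the pairs below show did not always hold. Subtraction was possible for 1107 edge segments, which carried a median of 22 sites, or 12.7 per kb (quartiles 9.88 and 16.3). It was possible for 160 segments that bridged a pair of Moneyberg regions, which carried a median of 6 sites, or 7.66 per kb (3.95 and 11.6). The median over all Bolstar control regions was 16.1 sites per kb. Among 1008 edge segments with several such pairs of regions, 846 gave the same number in all pairs, as did 99 of 133 bridging segments. The subtraction gave 0 or less for 5 edge and 2 bridging segments.

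The converse set had similar site densities. Moneyberg-only edge segments carried a median of 12.8 sites per kb (629 segments) and Moneyberg-only bridging segments 7.12 (52 segments). In both sets the bridging segments had fewer sites per kb than the edge segments. They were also shorter, with medians of 820.5 against 1730 bases in the Bolstar-only set and 753.5 against 1752 in the converse set. The densities were not compared at equal length.

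**Figure D2:**
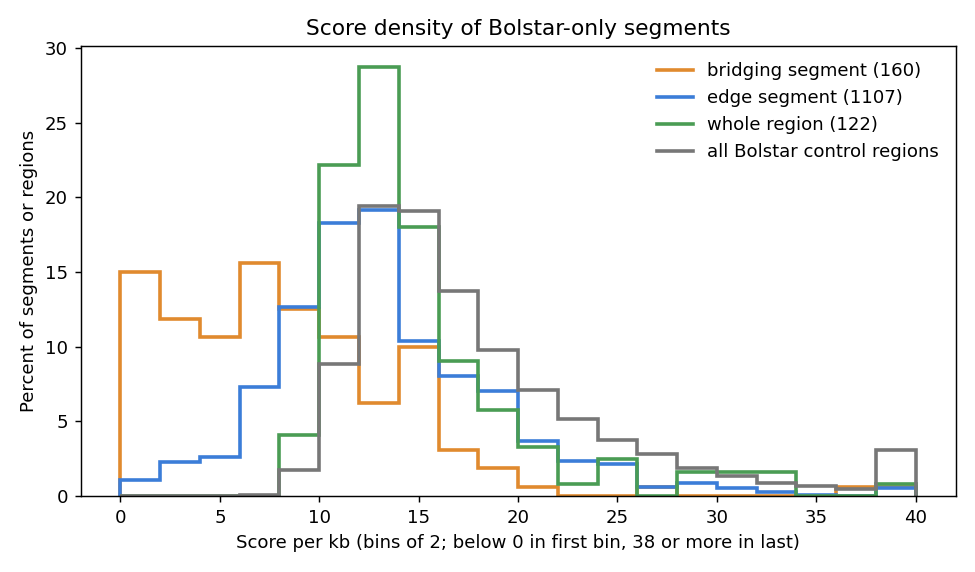
Score per kb (horizontal axis, bins of 2) against the percent of segments or regions (vertical axis) for 160 bridging and 1107 edge Bolstar-only segments, the 122 complete regions and all Bolstar control regions. Bridging segments lie to the left, with a median of 7.66 per kb, and all control regions to the right, with 16.1.

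Bolstar-only segments occurred on all 12 chromosomes. Chromosome 12 held the most, with 348 segments and 1048 kb (13.3% of the Bolstar-only bases), followed by chromosome 5 with 348 segments and 886 kb and chromosome 1 with 333 segments and 821 kb. Chromosome 6 held the least sequence, 436 kb in 172 segments, and chromosome 9 the fewest segments, 159 with 460 kb. Chromosome 12 also had 9 of the 37 segments of 10 kb or more.

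Relative to the sequence held by all 3 Bolstar lists, chromosome 9 stood highest. There 4.59% of the 10.0 Mb held by all 3 Bolstar lists was Bolstar-only, against 1.39% on chromosome 4 to 2.54% on chromosome 2 for the other 11. Chromosome 12 stood at 2.41% and chromosome 6 at 2.33%. The shares of edge segments (32.1%) and of inside segments (8.81%) were lower on chromosome 9 than on any other chromosome.

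The balance against the converse set differed by chromosome. Bolstar-only bases were 1.90 times the Moneyberg-only bases on chromosome 5 and 1.68 times on chromosome 12. On chromosome 6 they were 0.233 times, with 436 kb against 1873 kb, and on chromosome 9 they were 0.627 times. On chromosome 3 both amounts were 642 kb. In the part of chromosome 6 more than 5 Mb from both ends there were 333 kb of Bolstar-only sequence beside 1586 kb of Moneyberg-only sequence.

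**Figure D3:**
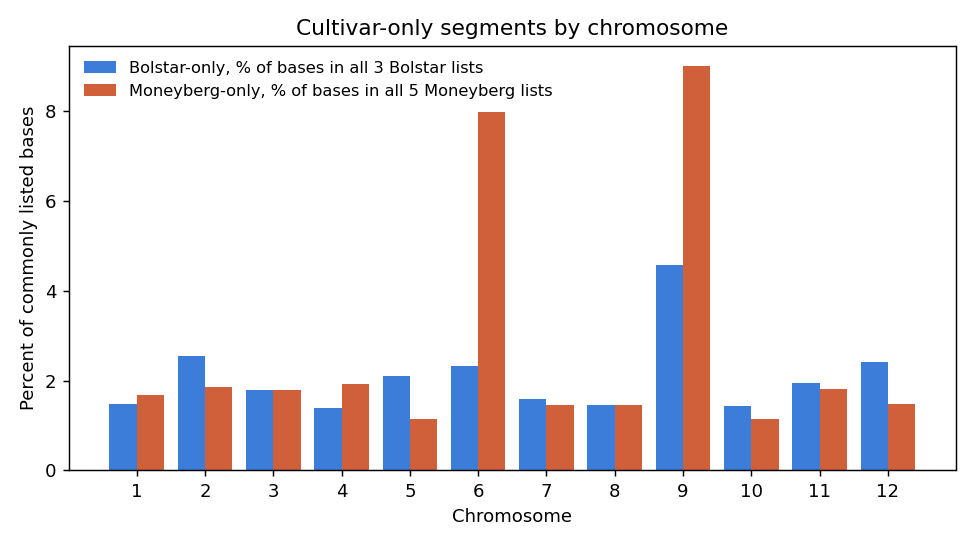
Bolstar-only bases as a percent of the bases held by all 3 Bolstar lists (blue) and Moneyberg-only bases as a percent of the bases held by all 5 Moneyberg lists (red), by chromosome. Chromosome 9 is high in both, at 4.59% and 9.01%, and chromosome 6 is high for Moneyberg only, at 7.98% against 2.33%.

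Most Bolstar-only sequence lay in chromosome interiors, as listed sequence did, but its share of the sequence held by all 3 Bolstar lists was larger near the ends. The part more than 5 Mb from both ends held 2602 segments and 6419 kb, or 1.60% of that sequence. The first 5 Mb of the chromosomes held 254 segments and 785 kb (5.79%) and the last 5 Mb 195 segments and 661 kb (11.6%). In the last 5 Mb every chromosome was above its own interior, from 4.92% on chromosome 3 to 15.9% on chromosome 5. In the first 5 Mb the share ran from 1.22% on chromosome 2 to 16.8% on chromosome 4, and chromosomes 2 and 3 were below their interiors.

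The converse set also took larger shares near the ends, with 7.98% in the first and 15.3% in the last 5 Mb against 1.61% between. Regions were shorter there, with medians of 7.48 and 7.20 kb in Bolstar control against 12.2 kb between. Of the control regions, 15.8% carried a Bolstar-only segment in the first 5 Mb, 21.9% in the last 5 Mb and 10.1% between. Place differed too: complete regions were 9.84% of the segments in the first 5 Mb and 14.4% in the last, but 2.65% between, and inside segments were 8.27%, 3.08% and 25.3%. Edge segments took a similar share in all 3 parts, with 48.4%, 46.7% and 44.7% in the first, the last and the middle part.

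**Figure D4:**
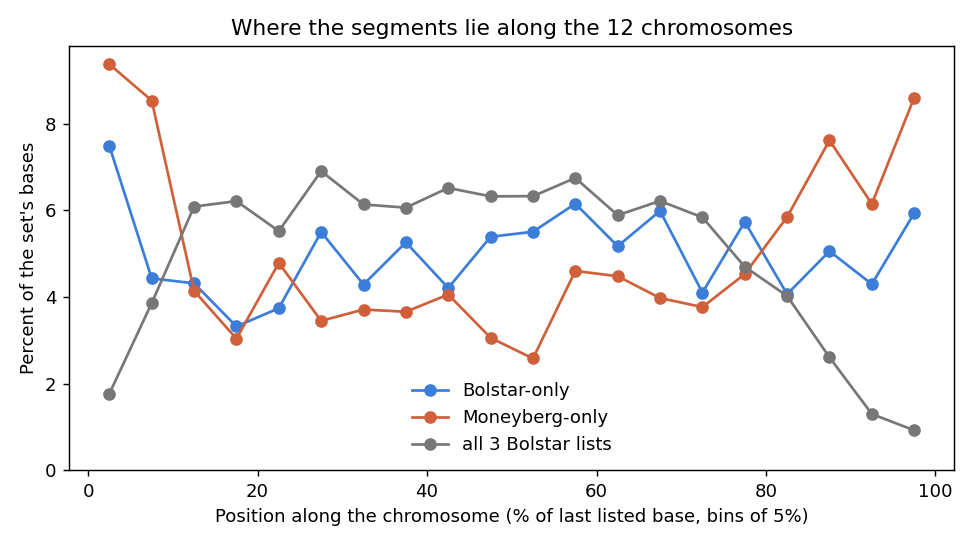
Percent of each set's bases (vertical axis) in 20 bins of 5% along the chromosomes, summed over all 12 (horizontal axis, percent of the last listed base), for Bolstar-only segments, Moneyberg-only segments and all sequence held by the 3 Bolstar lists. Bolstar-only bases range from 3.32% to 7.49% per bin, with 7.49% in the first bin and 5.94% in the last, where the sequence held by the 3 Bolstar lists has 1.77% and 0.921%.

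Segments were scattered rather than confined to a few blocks. Of 812 bins of 1 Mb, 741 held Bolstar-only sequence, with a median of 7.97 kb over all bins and quartiles of 3.57 and 13.5 kb. The 10 highest bins held 6.00% of it, and 179 bins were needed to hold 50%. The Spearman correlation over the 812 bins between Bolstar-only and Moneyberg-only bases was 0.17, given as a description of bins that share the amount of listed sequence. The median distance between neighbouring segments was 147 kb, and 372 of 3039 gaps were 20 kb or less. Joined at that distance, the segments formed 2679 runs, of which 2368 were single segments and 52 had 3 or more.

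The highest bins were on chromosome 12. The bin from 38 to 39 Mb held 71.9 kb in 13 segments and that from 41 to 42 Mb held 62.1 kb in 10, with 2.51 kb and none of Moneyberg-only sequence. The bins from 46 to 47 Mb (45.8 kb) and from 67 to 68 Mb (41.4 kb) of this chromosome were also among the 10 highest, and 9 of the 25 bins with 30 kb or more were on chromosome 12. From 38 to 47 Mb the chromosome held 266 kb, or 3.70% of its commonly listed Bolstar sequence, against 2.01% before and 2.47% after that stretch. The limits of the stretch were chosen after its high bins were seen, so its higher share follows from that choice.

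The bin from 63 to 64 Mb on chromosome 5 came next with 48.3 kb in 5 segments. Only 73.5 kb of it was held by all 3 Bolstar lists, so 65.6% of that was Bolstar-only. The other bins among the 10 highest were from 2 to 3 Mb on chromosome 4 (41.9 kb), 1 to 2 Mb on chromosome 1 (41.4 kb), 42 to 43 Mb on chromosome 11 (40.8 kb), and 47 to 48 Mb (40.1 kb) and 23 to 24 Mb (38.2 kb) on chromosome 3. The bins on chromosomes 4 and 1 held as much Moneyberg-only sequence, 42.5 and 44.1 kb, and the bin at 23 Mb on chromosome 3 held none.

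The longest segment spanned 20721 bases, from 38323449 to 38344169 on chromosome 12. In all 3 Bolstar lists it was the start of the same region, from 38323449 to 38351791, with a score of 452 in each. Before it, the nearest Moneyberg region ended 2287 bases away in all 5 lists. After it, a Moneyberg region began at the next base in BABA TW2, 2203 bases on in BABA TW3, and 2307 bases on in the control and in Ina TW2. In MeJA TW3 the next region began 29.6 kb on. The Moneyberg lists thus shared the end of the nearest region before the segment, and the start of the next region after it differed between them.

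Close by, the complete region from 38352616 to 38367448 on chromosome 12 (14.8 kb) had a score of 219 in every Bolstar list. The nearest Moneyberg regions ended 1009 bases before it in both BABA lists, 1035 in the control and 3446 in Ina TW2, and in MeJA TW3 the nearest region began 6282 bases after it. Together with another segment these formed the run with the most Bolstar-only sequence, 40.3 kb within 48.9 kb from 38323449 to 38372386.

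**Figure D5:**
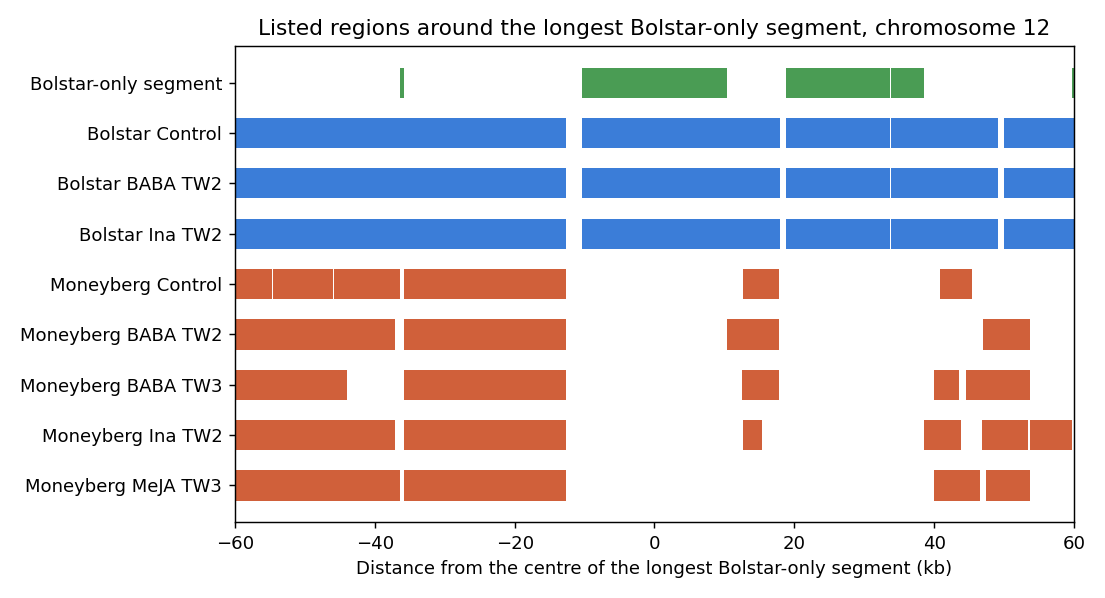
Listed regions of the 8 groups (rows) within 60 kb of the centre of the longest Bolstar-only segment on chromosome 12 (horizontal axis, distance in kb), with Bolstar-only segments in green. The 3 Bolstar rows are nearly the same and almost fully listed, while the Moneyberg rows have separate regions that differ between lists to the right of the longest segment, the first of them 29.6 kb after it in MeJA TW3.

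The second run lay from 41363787 to 41414547 on chromosome 12, with 5 segments and 39.7 kb within 50.8 kb. Its longest segment, from 41396316 to 41411287 (15.0 kb), was a complete region in Bolstar Ina TW2 with a score of 170. In Bolstar control and BABA TW2 it was the start of a region of 49.9 kb with a score of 645. All 5 Moneyberg lists had no region for 33.7 kb before it, and resumed 3260 to 4060 bases after it.

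Other long segments on chromosome 12 showed how the Bolstar lists could differ around a common core. The segment from 42844621 to 42861363 (16.7 kb) was a complete region in Ina TW2 (score 342) and lay inside regions of 25.5 kb in the control (score 487) and 66.2 kb in BABA TW2 (score 1013). The segment from 29070996 to 29085910 (14.9 kb) was the start of a region of 26.7 kb with a score of 359 in all 3 Bolstar lists, and all 5 Moneyberg lists began exactly where it ended. By subtraction it carried 174 sites, the most of any edge segment for which this was possible.

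On chromosome 3 the longest segment, from 47902145 to 47916887 (14.7 kb), was a complete region in Bolstar Ina TW2 (score 166), the start of a region of 58.4 kb in the control and inside a region of 102.7 kb in BABA TW2. All 5 Moneyberg lists resumed 170 bases after it, and before it 3 of them ended 286 bases away and the other 2 ended 5092 bases away. The longest segment of chromosome 10, from 23767628 to 23778149 (10.5 kb), likewise lay between close Moneyberg regions, with all 5 lists resuming after 295 bases. Moneyberg BABA TW3 reached up to its first base, while the other 4 ended 933 bases before it.

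The longest segments of chromosomes 1, 6, 7, 8, 9 and 11 were complete regions in every Bolstar list. On chromosome 8 the region from 58500048 to 58514737 (14.7 kb) had a score of 163 in all 3 Bolstar lists, and every Moneyberg list left a gap from 14.2 kb before to 9.32 kb after it. On chromosome 6 the region from 43385655 to 43399531 (13.9 kb, score 164 in all 3) had its nearest Moneyberg region 12.7 kb away in MeJA TW3 and 14.2 kb away in the other 4. On chromosome 7 the region from 897336 to 910317 (12.98 kb, score 139 in all 3) had its nearest Moneyberg region 20.7 kb before it.

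Of the same kind were the regions from 76911414 to 76922382 on chromosome 1 (11.0 kb, score 117 in all 3), 21.4 kb from the nearest Moneyberg region, and from 55285458 to 55295535 on chromosome 11 (10.1 kb, score 90 in all 3). Near the latter, Moneyberg BABA TW3 had a region 5787 bases away, and the nearest regions of the other 4 lists were 33.2 to 34.1 kb away. The region from 780693 to 792071 on chromosome 9 (11.4 kb, score 127 in all 3) stood closer to Moneyberg regions. The nearest ended 1317 bases before it in BABA TW3 and MeJA TW3, and a region began 1609 bases after it in all 5 lists.

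On chromosomes 2, 4 and 5 the longest segment was a complete region in 2 Bolstar lists and reached slightly further in the other. On chromosome 5 the segment from 63322505 to 63335660 (13.2 kb) had a score of 145 in the control and BABA TW2, and Ina TW2 started earlier with a score of 146. On chromosome 2 the segment from 32823587 to 32835968 (12.4 kb) had a score of 128 in the control and Ina TW2 and 129 in BABA TW2. On chromosome 4 the segment from 46333253 to 46345003 (11.8 kb) had a score of 109 in the control and BABA TW2 and 118 in Ina TW2. The last had Moneyberg regions 707 bases after it in all 5 lists.

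The segments were then followed when all 8 lists were first cut to regions with a score of 85 or more, the smallest score of Bolstar BABA TW2. Of the 3051 segments, 2989 kept the pattern over their whole length (98.0%), none did so in part and 62 were lost, which left 97.5% of the bases. No BABA TW2 region falls below that list's own minimum, and removing Moneyberg regions cannot end the pattern. A high share kept was therefore largely set by the choice of limit. Losses could come only from Bolstar regions below the cut: 58 of the 62 lay in such a region in Ina TW2 and 20 in the control. All 122 complete regions were kept, which follows from the choice of limit, since their lowest score in any Bolstar list was 86. Also kept were 98.8% of edge, 98.7% of inside and 95.8% of mixed segments. By chromosome 93.7% (chromosome 8) to 99.9% (chromosome 5) of the bases were left.

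The cut also added sequence, because it removed 10.7% to 16.2% of the regions of each Moneyberg list. Of the Bolstar lists it removed 10.5% of the regions in Ina TW2, 3.81% in the control and none in BABA TW2. The rule applied to the cut lists gave 3306 segments and 10.8 Mb. Of these, 337 segments (1.45 Mb) had no base of an original segment and 341 were longer than the original segment they contained. Chromosome 12 still held the most, with 1382 kb or 12.8%. The converse set moved the other way: 73.1% of the Moneyberg-only bases were left, and the rule gave 7.72 Mb for it on the cut lists. Bolstar-only sequence was the smaller of the opposite sets on the deposited lists and the larger after this cut. The limit was the minimum of 1 Bolstar list and removed a larger share of regions from every Moneyberg list than from any Bolstar list. Removing Moneyberg regions can only add Bolstar-only bases, so the change of order depends on the choice of limit and was not tested. The sets also still require different numbers of lists.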

How the data were processed

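Whole-genome bisulfite sequencing was run on 96 seed DNA libraries in 8 groups, per the labels (90 libraries in the design text). The authors deposited 1 list of regions per group, not 1 per library. Trim Galore is named in the submitters' processing notes. Aligner, region caller, genome build, cytosine context and pooling were not given in the sources used here. Read depth is unknown. The deposited score per region, a whole number, is read from its values as a number of cytosine sites. Positions follow the deposited lists and count from 1.

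Lists were assigned to groups by the labels' description. The genome was cut at all region ends, and overlaps were exact to the base. Chromosome length was taken as the last listed base. The code was tested on simulated data. The gene table used for comparison does not match the lists, whose last base lay 3659600 bases beyond its last gene on chromosome 1. On chromosome 2 the lists ended before the last gene, at base 55880402 against 71694720. Regions were therefore not assigned to genes, and no sequence is printed. Python 3.11.15, pandas 2.3.3, numpy 2.4.6 and scipy 1.17.1 were used. Named are the 10 longest segments, the longest of each chromosome, the 10 bins of 1 Mb with the most Bolstar-only bases, and 3 segments on each side of the length limit; the runs of neighbouring segments and the stretch from 38 to 47 Mb on chromosome 12 were chosen after their values were seen. Members, lists and rules were chosen with earlier results of these data known. No test was run.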

Additional observations from a re-analysis of the deposited data

How the results depend on the processing

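Chromosome 12 held the most Bolstar-only bases under all 16 alternatives, and the amount of Bolstar-only sequence stayed within 1.5 times of 7.87 Mb in all 16, from 6.05 Mb with Moneyberg regions widened by 500 bases to 10.8 Mb with either score minimum. The number of segments, 3051, changed with the length limit, to 4617 at 200 bases and 1402 at 2000 bases, and fell to 1976 with Moneyberg regions widened by 500 bases, a setting that removes short margins by its construction. Leaving out each of the 8 lists in turn gave 3304 to 3533 segments and 8.67 to 9.19 Mb. A list left out loosens the rule, so by construction the sequence with the pattern cannot shrink in these 8 settings. The share of segments inside a region of every Bolstar list, 22.5%, was the most dependent value: it was 33.4%, 14.3% and 11.0% at limits of 200, 1000 and 2000 bases, 18.6% with all lists at a score of 85 or more, 17.8% with each list at its median score or more, 30.5% with gaps of 500 bases or fewer merged, and 18.9% with widened Moneyberg regions. The share of bases on chromosome 12, 13.3%, was 15.6% with each list at its median score or more. Wilson intervals over segments set what counted as moved for shares, also for the share of bases. With 1 pooled list per group, no replicate could be left out and no error between plants can be given. No paired analysis was possible because the lists pool the replicates. The files give no read counts, so no detection limit can be set for a segment missing from a list.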
